A study of Homo sapiens with 6 samples.

Results

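The genes described here are 38 transcripts of glycolysis and of the cellular response to low oxygen, chosen by symbol from a list compiled for these routes. The list held 39 entries, of which 38 matched a gene among the 62696 counted, and the remaining entry was a placeholder for KDM3A that names no gene. By role they fell into 7 genes of the hypoxia-inducible factor (HIF) subunits and oxygen sensing, 17 genes of glycolytic enzymes, 4 regulatory kinases of sugar and pyruvate use, and 10 HIF targets outside metabolism. All 38 passed the filter on low counts.

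The libraries came from 12Z cells, an established line of human endometriosis epithelium, harvested 72 h after they were transfected, by a lipid reagent, with siRNA (short double-stranded RNA that silences a matching transcript). One group of 3 libraries (replicates A, B and C) received a commercial control siRNA, and the other group of 3 (A, B and C) received 1 siRNA directed at LINC01638, a long non-coding RNA whose relation to epithelial-to-mesenchymal transition the series set out to study. The effect of that 1 siRNA and the effect of losing its target cannot be told apart with these groups. No low-oxygen condition was part of the design, so each value is a level in routine culture, and the labels do not say whether the replicates were separate cultures, so the p-values rest on a spread between libraries that may be only technical.

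HIF is a pair of an alpha subunit, HIF-1 alpha from HIF1A or HIF-2 alpha from EPAS1, with a partner such as ARNT. In oxygen, prolyl hydroxylases of the EGLN family mark the alpha subunit for the VHL ubiquitin ligase, and the asparagine hydroxylase HIF1AN blocks its activity, so control of HIF is largely at the protein, which RNA counts do not show. HIF that escapes this control binds a short core, ACGTG or GCGTG, near genes for glucose breakdown, blood vessel growth, acid balance and mitochondrial turnover. Many of these genes also answer to other regulators, among them amino acid stress and growth factor signals, so their RNA level is no direct readout of HIF.

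Ribosomal RNA was depleted before strand-specific sequencing with paired 50 bp reads, and the libraries held between 45617234 and 58148664 counts assigned to genes. LINC01638 fell in the libraries labelled with its siRNA, from 7.70 ± 0.0943 to 2.11 ± 0.163 CPM (counts scaled to a common library size; mean ± SD, n = 3 libraries per group throughout), a log2 change of -1.87 (SE 0.111) at an edgeR adjusted p of 3.73e-11. Of 6 epithelial marker genes all were detected, with a summed level of 5171 to 5618 CPM in the control libraries and 3179 to 3708 CPM with LINC01638 siRNA. Of these genes 5 fell, among them KRT8 from 2604 to 1813 CPM, and EPCAM rose from 0.377 to 1.38 CPM. The sum of 5 leukocyte markers, 2 of which passed the filter, was at most 1.01 CPM in any library, with CD3E at 0 in all 6. The sum of 5 endothelial markers, 3 of which passed, was 12.7 to 15.4 CPM in controls and 10.5 to 12.5 CPM with LINC01638 siRNA. Of those 3, KDR fell from 12.3 to 7.995 CPM, while CDH5 rose from 1.05 to 1.78 CPM and VWF from 0.805 to 1.46 CPM. Reads outside annotated exons made up 9.18% ± 0.864 of mapped reads in controls and 13.2% ± 1.67 with LINC01638 siRNA. The part that these differences play in the values below was not tested, and in bulk RNA fewer cells with a transcript and less of it per cell cannot be told apart.

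The response of the 38 genes was mostly small and mostly downward. edgeR's quasi-likelihood test, with p-values adjusted over all 18569 genes tested and a threshold of 0.05, called 22 members lower and 5 higher with LINC01638 siRNA, and 11 were not called. Over all genes tested 56.0% were called, 29.6% lower and 26.3% higher, so that the share of members called (27 of 38) has to be read against a transcriptome in which calls were common. All 38 members are protein-coding. Of the 13586 protein-coding genes tested 4928 were called lower and 3884 higher, a larger share than over all genes. The median log2 fold change of the members was -0.19, beside -0.00 for all genes tested and -0.04 for the 13586 protein-coding genes tested. In 5 members all 3 libraries with LINC01638 siRNA lay above all 3 controls, in 23 all lay below, and in 10 the groups overlapped, where 61.5% of all genes tested did not overlap. Among the protein-coding genes tested, 4231 lay above and 5234 below in this way, and 4121 overlapped. Only 6 members changed at least 1.5-fold: DDIT4, ADM, PFKFB4, CA12 and PGAM1 fell and EGLN3 rose. Over all 18569 genes tested, 2213 were called at least 1.5-fold lower and 2030 at least 1.5-fold higher. Increases of that size were thus a larger share over all genes than among members (1 of 38). Decreases of that size (5 of 38 members) were a share near that over all genes. When libraries were scaled by their total counts alone, 13 members were called lower and 8 higher, and the median of all genes moved by 0.10 on the log2 scale. The decreases of HIF1A, VHL, TPI1, GAPDH, PGK1, PKM, PFKFB3, PDK1 and CA9 were no longer called under that scaling.

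**Figure D1:**
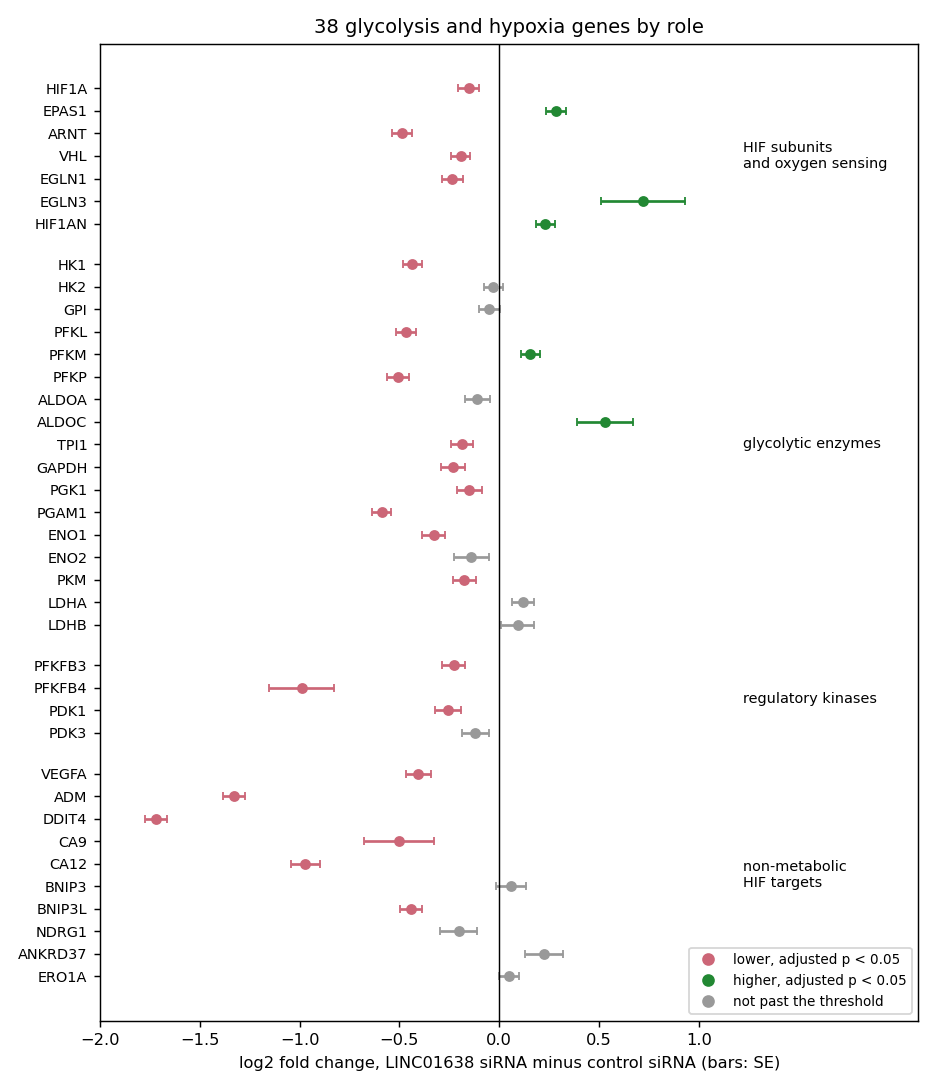
Log2 fold change (LINC01638 siRNA minus control siRNA, horizontal axis) of each of the 38 genes, grouped by role, with bars for the standard error and colours for the edgeR call at an adjusted p of 0.05. DDIT4 (-1.72) and ADM (-1.33) lie farthest to the left, and the 17 enzymes lie between -0.59 and 0.53.

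The HIF subunits moved in different directions. HIF1A (ENSG00000100644.17, GRCh38 chromosome 14, 61695513 to 61748259, plus strand) had 283, 274 and 281 CPM in the controls A, B and C and 238, 267 and 248 CPM with LINC01638 siRNA. All 3 of the latter were below the lowest control, yet replicate B was close to it. HIF1A fell by 0.15 on the log2 scale (SE 0.0515, edgeR adjusted p = 0.0154), a call that did not hold without LINC01638 siRNA replicate A (edgeR adjusted p = 0.107) or C (edgeR adjusted p = 0.0640), with protein-coding genes only (0.0569) or with scaling by total counts (log2 change -0.053, edgeR adjusted p = 0.392). EPAS1 (ENSG00000116016.14, chromosome 2, 46293667 to 46386703, plus strand) had 198, 195 and 199 CPM in controls and 250.05, 226 and 244 CPM with LINC01638 siRNA. The groups were well apart, and EPAS1 rose by 0.28 on the log2 scale (SE 0.0497, edgeR adjusted p = 6.39e-05). ARNT (ENSG00000143437.21, chromosome 1, 150809705 to 150876768, minus strand), a partner of both alpha subunits, had 70.7, 72.0 and 71.5 CPM in controls and 48.6, 52.5 and 51.5 CPM with LINC01638 siRNA. These levels fell 1.40-fold with little spread in either group (log2 change -0.49, SE 0.0502, edgeR adjusted p = 7.27e-08).

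Of the HIF alpha transcripts per kilobase of exon, HIF1A held 66.7% ± 0.167 in controls and 59.7% ± 2.64 with LINC01638 siRNA, and EPAS1 held the rest (33.3% and 40.3%). The 3 libraries of one group did not overlap the other. An exact two-sided permutation test of 3 against 3 libraries gave p = 0.1, the smallest it can give, and 0.157 after adjustment over 11 such gene families.

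The genes that restrain HIF also split. VHL, the substrate receptor of the ubiquitin ligase, fell from 88.5 ± 2.55 to 77.4 ± 1.85 CPM (log2 change -0.19, edgeR adjusted p = 0.00179). EGLN1, the prolyl hydroxylase regarded as the main oxygen sensor in most cells, fell from 49.1 ± 2.02 to 41.7 ± 1.05 CPM (log2 change -0.24, edgeR adjusted p = 9.35e-04). HIF1AN, the asparagine hydroxylase, rose from 163 ± 2.87 to 191 ± 4.80 CPM (log2 change 0.23, edgeR adjusted p = 2.64e-04). Scaled by total counts, VHL was at -0.092 and not called (edgeR adjusted p = 0.107). Each of these changes was under 1.2-fold in size, and for each of the 3 genes the libraries of the groups did not overlap.

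EGLN3, a prolyl hydroxylase gene that HIF itself induces in many cells, was the only member that rose at least 1.5-fold, from a low base. Its levels were 1.26, 0.710 and 1.19 CPM in controls, from 67, 31 and 63 counts, and 2.00, 1.71 and 1.56 CPM with LINC01638 siRNA, from 109, 89 and 94 counts. The lowest library with LINC01638 siRNA was above the highest control, and the rise was 1.65-fold (log2 change 0.72, SE 0.210, edgeR adjusted p = 0.00640). EGLN1 remained the larger of the pair per kilobase, at 97.9% ± 0.637 of their sum in controls and 96.0% ± 0.450 with LINC01638 siRNA.

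The largest decreases among the 38 genes were in HIF targets outside metabolism. DDIT4 (ENSG00000168209.6, chromosome 10, 72273920 to 72276036, plus strand), also known as REDD1, an inhibitor of the growth kinase complex mTORC1 that low oxygen, glucocorticoids and amino acid stress induce, had 93.8, 97.2 and 88.6 CPM in controls and 29.1, 27.7 and 28.1 CPM with LINC01638 siRNA. The groups were far apart, and the fall was 3.29-fold (log2 change -1.72, SE 0.0537, edgeR adjusted p = 1.42e-14). ADM (ENSG00000148926.10, chromosome 11, 10304680 to 10307397, plus strand), which encodes the vasodilator peptide adrenomedullin, had 162, 185 and 182 CPM in controls and 70.5, 68.0 and 71.9 CPM with LINC01638 siRNA. ADM fell 2.51-fold, and the spread between its libraries was small beside that difference (log2 change -1.33, SE 0.0542, edgeR adjusted p = 3.02e-13).

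CA12 and CA9 encode carbonic anhydrases of the cell surface that help to export acid. CA12 (ENSG00000074410.14, chromosome 15, 63321378 to 63382161, minus strand) had 22.6, 26.0 and 25.9 CPM in controls and 13.3, 12.0 and 12.6 CPM with LINC01638 siRNA. All libraries with LINC01638 siRNA were far below the controls, a 1.96-fold fall (log2 change -0.97, SE 0.0745, edgeR adjusted p = 1.31e-09). CA9 (ENSG00000107159.14, chromosome 9, 35673856 to 35681159, plus strand), a target often used as a marker of hypoxia, was low in both groups, at 3.92, 4.76 and 5.35 CPM in controls and 3.88, 2.27 and 3.69 CPM with LINC01638 siRNA. Its groups nearly touched, and its fall (log2 change -0.50, SE 0.176, edgeR adjusted p = 0.0242) was lost when control replicate B (edgeR adjusted p = 0.0677), control replicate C (0.115) or LINC01638 siRNA replicate B (0.0640) was left out. Without LINC01638 siRNA replicate B its log2 change was -0.31, and scaling by total counts also ended the call (log2 change -0.40, edgeR adjusted p = 0.0653).

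VEGFA (ENSG00000112715.26, chromosome 6, 43770184 to 43786487, plus strand), the main growth factor for blood vessels, had 70.1, 75.1 and 73.2 CPM in controls and 59.4, 49.0 and 56.4 CPM with LINC01638 siRNA. Its groups did not overlap, and it fell 1.32-fold (log2 change -0.40, SE 0.0617, edgeR adjusted p = 1.47e-05). BNIP3L, a receptor on mitochondria that directs them to autophagy, had 249, 217 and 244 CPM in controls and 174, 167 and 181 CPM with LINC01638 siRNA, a 1.36-fold fall with groups well apart (log2 change -0.44, SE 0.0555, edgeR adjusted p = 1.07e-06).

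The other 4 targets in this group were not called. BNIP3, the close relative of BNIP3L and a classical HIF-1 target, had 118, 107 and 117 CPM in controls and 122, 102 and 131 CPM with LINC01638 siRNA (log2 change 0.06, SE 0.0773, edgeR adjusted p = 0.551). Its libraries with LINC01638 siRNA spanned the controls on both sides, and it was called higher only when LINC01638 siRNA replicate B was left out (log2 change 0.15, edgeR adjusted p = 0.0366). ERO1A, an oxidase of the endoplasmic reticulum that helps to form disulfide bonds, had 145 ± 6.32 and 149.9 ± 5.09 CPM (log2 change 0.05, edgeR adjusted p = 0.405).

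ANKRD37, an ankyrin repeat gene induced in low oxygen, had 9.70, 11.1 and 9.95 CPM in controls and 10.8, 13.8 and 11.2 CPM with LINC01638 siRNA. The lowest of the latter lay inside the control range (log2 change 0.22, edgeR adjusted p = 0.0523), and 35.2% of the exon bases of ANKRD37 lie opposite UFSP2. With the counts that ignore strand its log2 fold change was -0.01. ANKRD37 was called higher by edgeR with DESeq2 size factors, protein-coding genes only, a stricter filter or a block for the replicate letter. NDRG1, a stress-response gene, had 133, 127 and 129 CPM in controls and 120.01, 93.2 and 124 CPM with LINC01638 siRNA. All 3 libraries with LINC01638 siRNA were lower, with replicate B far below the other two, and the difference did not pass (log2 change -0.20, SE 0.0934, edgeR adjusted p = 0.0930), while it did without LINC01638 siRNA replicate A (0.0390) or C (0.00896). NDRG1 was also called lower by DESeq2's Wald test (adjusted p = 0.0450), by limma-voom (0.0291), and by edgeR without the filter (5.46e-04) and with counts that ignore strand (0.0309).

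**Figure D2:**
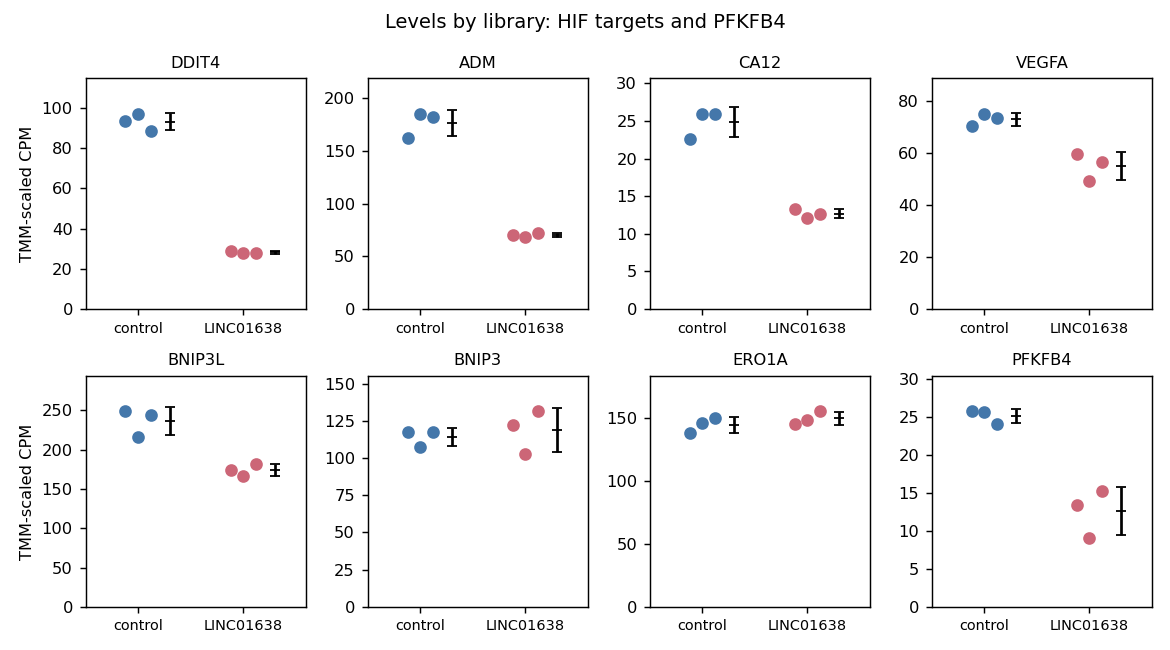
Scaled CPM (vertical axes, starting at 0) of 7 HIF targets outside metabolism and PFKFB4 in each of the 3 control (blue) and 3 LINC01638 siRNA (red) libraries, with mean and SD in black. DDIT4, ADM, CA12 and PFKFB4 separate widely, VEGFA and BNIP3L by less, and BNIP3 and ERO1A overlap.

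The pair BNIP3 and BNIP3L shows how related targets differed in these libraries. Per kilobase, BNIP3 held 28.1% ± 0.462 of their summed level in controls and 35.5% ± 2.02 with LINC01638 siRNA, without overlap (exact permutation p = 0.1, the smallest possible, 0.157 adjusted over families).

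The HIF core was present near both the genes that fell and those that were not called. Windows from 250 bases before to 50 bases after the annotated start were taken from RefSeq on GRCh38.p14 for 34 members, 57 windows in all since a gene can have several starts. VHL, VEGFA, BNIP3L and NDRG1 were not searched. The 29-base stretches that follow set targets that fell (DDIT4, ADM, CA12, CA9) beside targets that were not called (ANKRD37, BNIP3, ERO1A), each read 5′ to 3′ on the strand of its gene with the core in capitals. ACGTG and GCGTG mark the core on the strand of the gene, and CACGT and CACGC mark the same cores on the opposite strand.
DDIT4, chr10:72273787-72273815, plus strand, 125 bases before the start: agaacgttgcttACGTGcgcccggagtcc
DDIT4, chr10:72273859-72273887, plus strand, 53 bases before the start: ggcgcagagaagGCGTGgcctcgccgcgc
ADM, chr11:10304960-10304988, plus strand, 101 bases before the start: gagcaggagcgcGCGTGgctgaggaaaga
CA12, chr15:63382064-63382092, minus strand, 234 bases before the start: gcggatctcaccCACGCctgccagcagct
CA9, chr9:35673898-35673926, plus strand, 18 bases before the start: tcgtttccaatgCACGTacagcccgtaca
ANKRD37, chr4:185396686-185396714, plus strand, 143 bases before the start: cagtgtttgtgtACGTGcggccgtggcgg
BNIP3, chr10:131982040-131982068, minus strand, 133 bases before the start: cgcacgcgccgcACGTGccacacgcaccc
ERO1A, chr14:52695656-52695684, minus strand, 114 bases before the start: cgggcgccgcggCACGTccacaggctggg

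A match to 5 letters is frequent by itself. ACGTG was found on either strand in 24 of the 57 member windows (42.1%), in 21.4% of all 35116 windows and in 24.9% of the windows of tested genes. GCGTG was in 24 of 57 (42.1%), above its share of all windows (36.5%) and below its share of the windows of tested genes (47.6%). Either core was in 38 of 57 (66.7%), against 48.4% of all windows and 59.6% of the windows of tested genes. All 7 windows of the targets outside metabolism held one, as did 23 of 37 windows of the enzymes, 5 of 6 of the regulatory kinases and 3 of 7 of the HIF and oxygen sensing genes. ACGTG overlaps the palindrome CACGTG, the E-box of other factors, which was in 8 of the 57 member windows (14.0%) and in 7.26% of all. Within the targets outside metabolism, the genes that fell and those that were not called both held the core in every window searched.

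By median, the glycolytic enzymes moved less than these targets. Of the 17 genes 9 fell, 2 rose and 6 were not called, with a median log2 fold change of -0.15 and a range of -0.59 to 0.53. The targets outside metabolism had 6 lower, 0 higher and 4 not called, a median of -0.42 and a range of -1.72 to 0.22. Of all genes tested 56.0% were called, 29.6% lower and 26.3% higher. The share called in either group was thus near that of all genes, while its calls were mostly downward. ANKRD37 was the 1 target higher at an unadjusted edgeR p under 0.05, and DESeq2's Wald test and limma-voom also called 0 higher. Other settings of edgeR did call targets higher. ANKRD37 was called with DESeq2 size factors, protein-coding genes only, a stricter filter or a block for the replicate letter. Scaling by total counts called 2 targets higher. At least 1.5-fold decreases were seen in 1 of 17 enzymes and in 3 of 10 of those targets, beside 2213 of all 18569 genes tested. The difference between the groups of genes was described only and not tested. The mean log2 level of the 17 enzymes, relative to the control mean, with LINC01638 siRNA was -0.15 in replicate A, -0.21 in B and -0.08 in C. For the 10 targets it was -0.48, -0.64 and -0.47, so that the mean of the targets was lower in each of the 3 libraries, and replicate B was the lowest for both. DDIT4 (-1.72), ADM (-1.33) and CA12 (-0.97) weighed most in the mean of the targets. All other targets lay between -0.50 (CA9) and 0.22 (ANKRD37), within the range of the enzymes.

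Added up, the 17 enzymes held 15015, 14491 and 14155 CPM in controls and 12402, 12165 and 13042 CPM with LINC01638 siRNA. Every sum with LINC01638 siRNA was below every control, and the mean went from 14553 ± 434 to 12536 ± 454 CPM, a difference of -13.9%. The size of this difference rests on the scaling used. With libraries scaled by total counts alone, GAPDH, PKM, TPI1 and PGK1 were no longer called lower. The sum was not taken on that scale. GAPDH, ENO1 and PKM together made up 67.1% ± 0.367 of that sum in controls and 65.9% ± 0.580 with LINC01638 siRNA. The counts of ALDOA and LDHB leave out reads in exons shared with another annotated gene. The sum may therefore be too low and this share too high.

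The first steps of the pathway changed by isozyme. HK1 (ENSG00000156515.25, chromosome 10, 69269984 to 69401884, plus strand), a broadly expressed hexokinase that phosphorylates glucose, had 273, 281 and 265 CPM in controls and 202, 201 and 203 CPM with LINC01638 siRNA. The groups were far apart, and HK1 fell 1.35-fold (log2 change -0.44, SE 0.04705, edgeR adjusted p = 1.45e-07). HK2, the inducible hexokinase and a HIF-1 target, had 148 ± 4.50 and 145 ± 7.59 CPM in overlapping groups (log2 change -0.03, SE 0.04997, edgeR adjusted p = 0.648). HK1 held 64.0% ± 1.16 of the hexokinase pair per kilobase in controls and 57.3% ± 1.17 with LINC01638 siRNA, without overlap (exact permutation p = 0.1, 0.157 adjusted). GPI, which turns glucose 6-phosphate into fructose 6-phosphate, was not called, at 602 ± 13.9 and 581 ± 25.2 CPM (log2 change -0.05, edgeR adjusted p = 0.434).

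Phosphofructokinase, the main point of control of the pathway, is built from subunits of 3 genes. PFKL (ENSG00000141959.17, chromosome 21, 44300051 to 44327376, plus strand), the liver-type subunit, had 352, 347 and 345 CPM in controls and 244, 244 and 266 CPM with LINC01638 siRNA. PFKP (ENSG00000067057.19, chromosome 10, 3066333 to 3137712, plus strand), the platelet-type subunit, had 422, 425 and 409 CPM in controls and 301, 271 and 312 CPM with LINC01638 siRNA. Both were lower in every library with LINC01638 siRNA, PFKL 1.38-fold (log2 change -0.47, edgeR adjusted p = 1.35e-07) and PFKP 1.42-fold (log2 change -0.51, edgeR adjusted p = 1.87e-07). PFKM, the muscle-type subunit, rose by a small amount, from 81.5, 84.1 and 78.5 CPM to 89.2, 90.3 and 92.2 CPM (log2 change 0.15, edgeR adjusted p = 0.00927). Its groups did not overlap, but the call did not hold without control replicate C (edgeR adjusted p = 0.0554) or LINC01638 siRNA replicate C (0.0559), nor with counts that ignore strand (0.0764), where 8.58% of its exon bases lie opposite SENP1. Per kilobase PFKM went from 8.13% ± 0.154 to 12.2% ± 0.595 of the family and PFKP from 63.3% ± 0.220 to 60.02% ± 1.37 (exact permutation p = 0.1 for PFKP, 0.157 adjusted).

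In the middle of the pathway the genes went in different directions. ALDOA, the main aldolase of most cells, was counted at only 27.9 ± 1.04 CPM in controls and 25.8 ± 1.35 CPM with LINC01638 siRNA and was not called (log2 change -0.11, edgeR adjusted p = 0.140). A second annotated gene, ENSG00000285043, shares 42.3% of the exon bases of ALDOA on the same strand and had 6.37 ± 0.462 CPM in controls, and reads that lie in both genes are not counted for either, so the level of ALDOA here is a lower limit. ALDOC, the brain-type aldolase, rose from 1.93, 2.27 and 2.24 CPM to 3.15, 2.83 and 3.29 CPM, 1.44-fold with groups apart (log2 change 0.53, SE 0.139, edgeR adjusted p = 0.00296). TPI1, which interconverts the triose phosphates, fell from 1016 ± 48.6 to 893 ± 32.8 CPM (log2 change -0.19, edgeR adjusted p = 0.00821), but was not called when scaled by total counts (-0.084, edgeR adjusted p = 0.212).

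GAPDH (ENSG00000111640.15, chromosome 12, 6533927 to 6538374, plus strand), often used as a reference transcript in quantitative PCR, was the most abundant member per kilobase of exon, at 1534 CPM per kb in controls. Its level was 4752, 4541 and 4425 CPM in controls and 3841, 3779 and 4064 CPM with LINC01638 siRNA. All 3 of the latter were lower, and GAPDH fell by 14.8% (log2 change -0.23, SE 0.0615, edgeR adjusted p = 0.00324), a call not kept when libraries were scaled by total counts (log2 change -0.13, edgeR adjusted p = 0.0752). The 65 annotated GAPDH pseudogenes held 0.143% of the summed CPM of gene and pseudogenes in controls and 0.168% with LINC01638 siRNA. The row for reads that map to several places was 0 in every library. These percentages therefore cannot show how many reads matched both GAPDH and a pseudogene.

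Among the steps that yield ATP, PGK1 had 801, 738 and 753 CPM in controls and 683, 638 and 746 CPM with LINC01638 siRNA. One library of the latter group lay inside the control range, and the fall was marginal (log2 change -0.15, edgeR adjusted p = 0.0425) and was lost without control replicate A (edgeR adjusted p = 0.132) or C (0.0836) or without LINC01638 siRNA replicate A (0.107) or B (0.196). It was also lost under both other scalings, DESeq2 size factors (edgeR adjusted p = 0.0660) and total counts (log2 change -0.047, edgeR adjusted p = 0.530), with protein-coding genes only (0.140), with the stricter filter (0.127) and by DESeq2's Wald test (0.0538). PKM, which makes pyruvate, fell from 2530 ± 69.5 to 2241 ± 69.9 CPM (log2 change -0.18, edgeR adjusted p = 0.0142), a call lost without LINC01638 siRNA replicate A (edgeR adjusted p = 0.0903), with protein-coding genes only (0.0526) and with scaling by total counts (log2 change -0.073, edgeR adjusted p = 0.279). Counts per gene do not separate its M1 and M2 isoforms.

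PGAM1 (ENSG00000171314.9, chromosome 10, 97426160 to 97433441, plus strand), the phosphoglycerate mutase between these 2 steps, fell the most among the enzymes. Its levels were 197, 188 and 181 CPM in controls and 124, 122 and 129.9 CPM with LINC01638 siRNA. The groups were far apart, and the fall was 1.504-fold (log2 change -0.59, SE 0.0486, edgeR adjusted p = 3.61e-09). The promoter window searched for PGAM1 held neither core. ENO1 (ENSG00000074800.16, chromosome 1, 8861000 to 8879250, minus strand), the enolase of most tissues, had 2736, 2687 and 2576 CPM in controls and 2113, 2042 and 2214 CPM with LINC01638 siRNA, a 1.26-fold fall without overlap (log2 change -0.33, edgeR adjusted p = 8.17e-05). ENO2, the neuronal enolase, had 88.6 ± 2.57 and 80.4 ± 11.6 CPM and was not called (log2 change -0.14, edgeR adjusted p = 0.195), though it was without LINC01638 siRNA replicate C (log2 change -0.24, edgeR adjusted p = 0.00973).

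Lactate dehydrogenase stood apart from the enzymes that fell. LDHA, which turns pyruvate into lactate and is a classical HIF-1 target, had 860, 792 and 790.4 CPM in controls and 886, 846 and 917 CPM with LINC01638 siRNA. The groups overlapped by 1 control library, and the difference was not called (log2 change 0.12, SE 0.0562, edgeR adjusted p = 0.0824), while without control replicate A it was (log2 change 0.17, edgeR adjusted p = 0.00733). LDHA was also called higher by edgeR with scaling by total counts (adjusted p = 0.00255), with protein-coding genes only (0.0206) and with the stricter filter (0.0249), and by DESeq2's Wald test (0.0326). LDHB had 11.7 ± 0.963 and 12.5 ± 0.825 CPM (log2 change 0.09, edgeR adjusted p = 0.367). A second annotated gene shares 33.4% of the exon bases of LDHB, so this level is a lower limit too. LDHA held 97.1% of the pair per kilobase in both groups, with LDHB undercounted for that reason (exact permutation p = 0.7). Among the 17 enzyme genes 16 held a core in at least 1 window, those that fell, rose or were not called alike, and PGAM1 was the one without. LDHA and PGK1, classical HIF-1 targets, are printed as examples.
LDHA, chr11:18394478-18394506, plus strand, 73 bases before the start: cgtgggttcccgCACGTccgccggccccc
PGK1, chrX:78104053-78104081, plus strand, 183 bases before the start: aaacggaagccgCACGTctcactagtacc

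**Figure D3:**
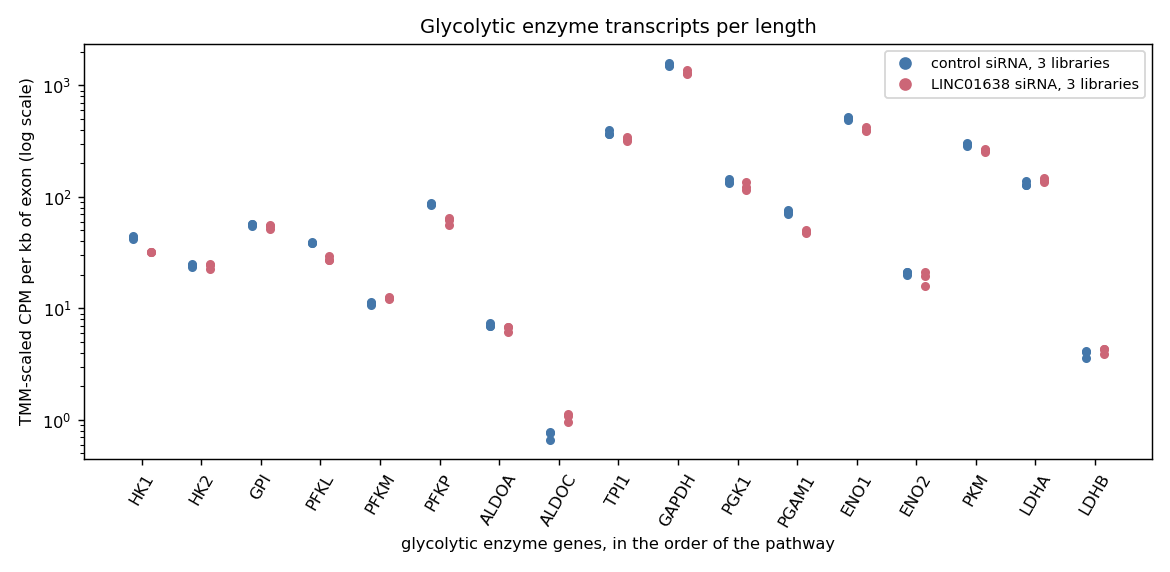
CPM per kilobase of exon (log scale, vertical axis) of the 17 enzyme genes in the order of the pathway, with each of the 3 control (blue) and 3 LINC01638 siRNA (red) libraries as a point. Control means span from 0.734 for ALDOC to 1534 for GAPDH, and the groups separate clearly for HK1, PFKL, PFKP and PGAM1.

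The order of abundance per kilobase of exon in controls was GAPDH (1534 CPM per kb), ENO1 (505), TPI1 (376), PKM (295), PGK1 (139) and LDHA (131). PFKP (86.6) and PGAM1 (73.4) came next, and ALDOC was the lowest enzyme at 0.734 CPM per kb. PGK1 and LDHA are neighbours in that order whose control libraries overlapped in level. The order depends on the length used. The merged exons of PKM and LDHA span 8571 and 6210 bases, and their longest transcripts 3016 and 2416. Divided by the longest transcript, PKM would stand above TPI1 and LDHA above PGK1. The levels of ALDOA and LDHB are lower limits, so their places in the order are not known.

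The regulatory kinases fell in 3 of 4 cases, where 29.6% of all genes tested were called lower. PFKFB4 (ENSG00000114268.12, chromosome 3, 48517684 to 48562015, minus strand) and PFKFB3 make and remove fructose 2,6-bisphosphate, the strongest activator of phosphofructokinase. PFKFB4 had 25.7, 25.6 and 24.1 CPM in controls and 13.4, 9.10 and 15.3 CPM with LINC01638 siRNA. The groups were far apart, with replicate B the lowest, and PFKFB4 fell 1.99-fold (log2 change -0.99, SE 0.163, edgeR adjusted p = 0.00114). PFKFB3 fell from 68.8 ± 3.46 to 58.7 ± 4.35 CPM (log2 change -0.23, edgeR adjusted p = 0.00233), but was not called when scaled by total counts (-0.13, edgeR adjusted p = 0.0727). PFKFB4 therefore went from 26.8% ± 0.612 to 17.5% ± 2.77 of the pair per kilobase, without overlap (exact permutation p = 0.1, 0.157 adjusted).

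PDK1 and PDK3 phosphorylate pyruvate dehydrogenase and so hold pyruvate back from the mitochondrial oxidation route. PDK1, a classical HIF-1 target, fell from 37.5 ± 1.77 to 31.3 ± 2.73 CPM (log2 change -0.26, edgeR adjusted p = 0.00231), a call lost with scaling by total counts (-0.16, edgeR adjusted p = 0.0559). PDK3 was not called, at 20.2 ± 0.901 and 18.6 ± 0.889 CPM in overlapping groups (log2 change -0.12, edgeR adjusted p = 0.144).

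**Figure D4:**
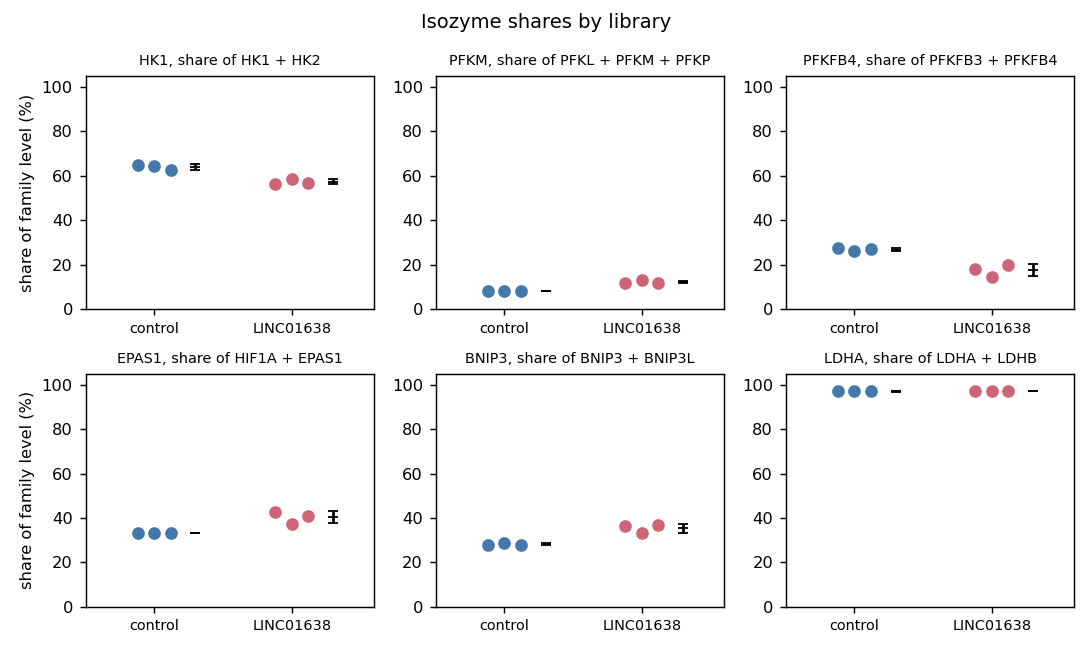
Share of the family level per kilobase (percent, vertical axes from 0) held by 1 gene of each of 6 families in the 3 control (blue) and 3 LINC01638 siRNA (red) libraries, with mean and SD in black. EPAS1, PFKM and BNIP3 take a larger share and HK1 and PFKFB4 a smaller one with LINC01638 siRNA. LDHA is at 97.1% in both groups, with LDHB undercounted.

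Of the 11 families of related members compared in this way, the share of the more abundant gene did not overlap between the groups in 7, each with the smallest exact permutation p of 0.1 and 0.157 after adjustment. A design of 3 against 3 libraries cannot give a lower value. In the levels of single genes, 61.5% of all genes tested did not overlap either, so 7 of 11 is near what genes at large showed. The families without overlap were hexokinase, phosphofructokinase, aldolase, PFKFB, HIF alpha, EGLN and BNIP3. Enolase, lactate dehydrogenase, pyruvate dehydrogenase kinase and the carbonic anhydrases overlapped. The shares of aldolase and lactate dehydrogenase leave out reads that ALDOA and LDHB have in common with another annotated gene.

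Other genes of the same routes were taken from 6 lists compiled from general knowledge. Of 120 genes 101 were tested, 31 were higher, 39 were lower and 31 were not called, with a median log2 fold change of -0.01. Over all genes tested 56.0% were called, 29.6% lower and 26.3% higher, and the counts of each list are to be read beside these shares. Among the 45 tested of 50 further HIF targets, 17 were higher and 19 lower (median 0.00), so these were called in both directions. ERRFI1, a feedback inhibitor of the EGF receptor, rose from 51.1 ± 1.54 to 92.4 ± 2.98 CPM (log2 change 0.86, edgeR adjusted p = 2.95e-11), and TFRC, the transferrin receptor, from 185 ± 16.7 to 309.7 ± 10.3 CPM (log2 change 0.74, edgeR adjusted p = 2.73e-09). ZNF395, a transcription factor, fell from 141 ± 0.900 to 88.3 ± 2.52 CPM (log2 change -0.67, edgeR adjusted p = 2.67e-10). FLT1, a VEGF receptor, had 7, 3 and 2 counts in controls and 88, 93 and 109 with LINC01638 siRNA, a ratio of 21.8 after scaling (95% interval 12.3 to 42.6, which covers counting error only). KDM3A, a histone demethylase that HIF induces and the gene the placeholder entry refers to, rose from 75.8 ± 1.28 to 90.9 ± 4.45 CPM (log2 change 0.26, edgeR adjusted p = 1.51e-04).

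Further regulators of HIF were 4 higher and 3 lower of 11 tested (median -0.00), where 56.0% of all genes tested were called. CREBBP, a coactivator of HIF, rose from 233 ± 10.4 to 326 ± 19.7 CPM (log2 change 0.48, edgeR adjusted p = 2.50e-07). CITED2, which competes with HIF for that coactivator, fell from 184 ± 12.6 to 143 ± 6.20 CPM (log2 change -0.36, edgeR adjusted p = 9.35e-06). SIAH2, a ubiquitin ligase for prolyl hydroxylases, fell by 0.58 and RBX1, a subunit of the VHL ligase, by 0.24 on the log2 scale (edgeR adjusted p = 4.08e-08 and 0.00167).

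SLC16A3 (also MCT4), the lactate exporter that HIF-1 induces, had 615, 704 and 652 CPM in controls and 367, 345 and 389 CPM with LINC01638 siRNA, with a wide gap between the groups. It fell 1.79-fold (log2 change -0.84, SE 0.0601, edgeR adjusted p = 5.01e-10). Of 12 transport genes tested 3 were higher and 4 lower (median -0.01), a share called near the 56.0% of all genes tested. EMB, an accessory protein of lactate carriers, SLC2A6 and SLC2A8 were the other lower ones, at log2 fold changes of -0.73, -0.69 and -0.27. SLC2A1 (GLUT1), a main glucose carrier and a HIF-1 target chosen for mention after its values were seen, had 81.1, 92.2 and 93.9 CPM in controls and 109, 91.2 and 110.4 CPM with LINC01638 siRNA. Replicate B with LINC01638 siRNA lay inside the control range, and SLC2A1 rose by 0.22 on the log2 scale (edgeR adjusted p = 0.0217).

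Other glycolysis and gluconeogenesis genes were 2 higher and 7 lower of 14 tested (median -0.21), where 56.0% of all genes tested were called. PCK2, the mitochondrial enzyme that makes phosphoenolpyruvate, fell 2.33-fold from 52.4 ± 0.265 to 22.5 ± 0.160 CPM (log2 change -1.22, SE 0.0540, edgeR adjusted p = 8.51e-13), a larger change in size than that of any of the 17 enzymes. PGM1, a phosphoglucomutase, and G6PC3, a glucose 6-phosphatase, fell by 0.55 and 0.76 on the log2 scale, and PFKFB2, another gene of the PFKFB family that was not on the list of members, rose by 0.55.

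In the pentose phosphate pathway 4 of 8 genes tested were lower and 4 were not called (median -0.08), a share called below the 56.0% of all genes tested. The lower ones were PGLS, H6PD, TALDO1 and RPE, at log2 fold changes of -0.81, -0.65, -0.38 and -0.15. Among genes for entry of pyruvate into mitochondria, 5 were higher and 2 lower of 11 tested (median 0.07), beside the same 56.0%. PDHX, a subunit of the pyruvate dehydrogenase complex, rose from 44.6 ± 2.67 to 63.5 ± 1.46 CPM (log2 change 0.51, edgeR adjusted p = 1.32e-07), PDPR and MPC2 rose by 0.35 and 0.22 on the log2 scale, and PDK2, another pyruvate dehydrogenase kinase, fell by 0.58.

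**Figure D5:**
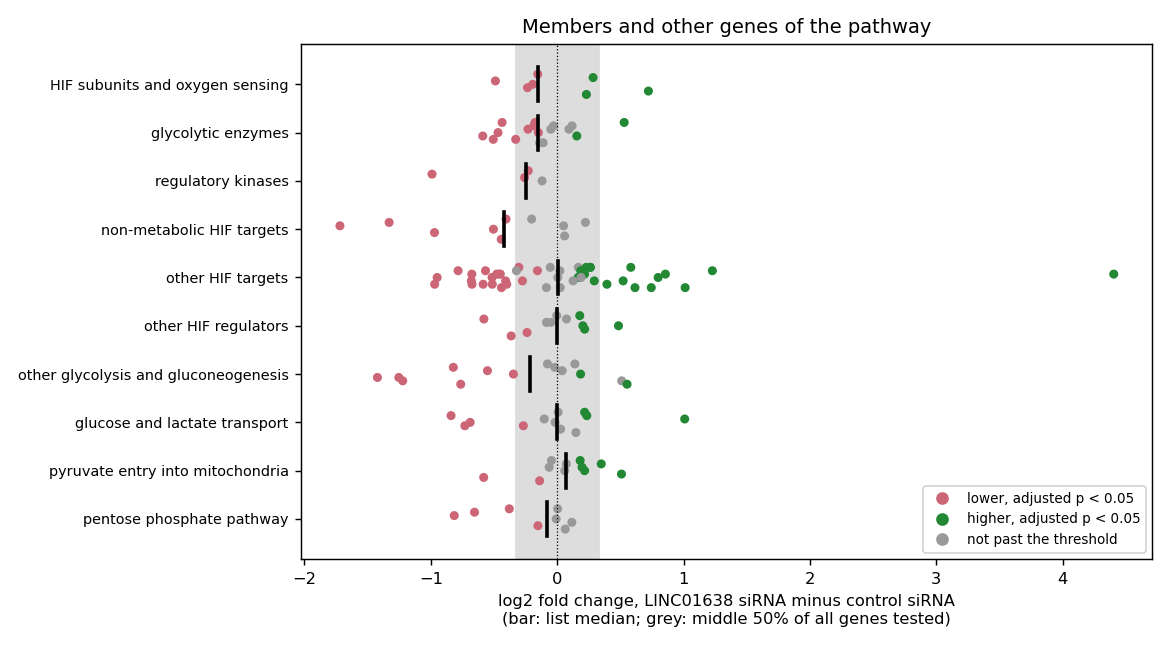
Log2 fold change (LINC01638 siRNA minus control siRNA, horizontal axis) of each tested gene in the 4 groups of members and the 6 wider lists, coloured by edgeR call, with a black bar at each list's median and grey for the middle 50% of all genes tested (-0.33 to 0.33). The targets outside metabolism have the lowest median (-0.42), and the other HIF targets spread to both sides of 0.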

How the data were processed

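Total RNA was sequenced from 6 libraries of 12Z cells, 3 per group, with groups and replicate letters taken from titles and treatment labels. The counts, as deposited by the authors, are whole reads per gene in 1 STAR table per library. STAR 2.7.10b, R 4.2.1 and GRCh38 are named per the submitters' processing notes, and which annotation release served is not given in the sources used here. Reverse-strand counts were taken, as the kit is directional. Rows naming no gene (unmapped reads, 12.3% and 13.0% of fragments in controls and with LINC01638 siRNA; reads outside exons; and reads over more than 1 gene, 7.49% and 7.17% of those mapped) stayed out of library sizes. Symbols matched 61918 identifiers exactly and 754 without version, and positions and exon lengths came from GENCODE 29, which holds 58269 of them.

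Genes passed edgeR's filterByExpr (minimum count 10, minimum total 15), were scaled by TMM (trimmed mean of M-values) and compared by edgeR's quasi-likelihood F test with robust dispersions and Benjamini-Hochberg adjustment over 18569 genes (threshold 0.05). The SE is the size of the log2 change over the root of F, and the common biological coefficient of variation was 5.62%. Levels are TMM-scaled CPM, and per kilobase they are divided by the merged exon length. Replicates of a group differed by more than sampling noise. Alternatives were other scalings, filters and tools, a block for the replicate letter, the unstranded column and leaving out each library. Tools were Python 3.11.15 with scipy 1.17.1, pandas 2.3.3 and numpy 2.4.6, and R 4.3.3 with DESeq2 1.42.0, limma 3.58.1 and edgeR 4.0.16, and the tests were first tested on simulated data. All members are named, and of each wider list up to 4 genes past the threshold with the lowest p. KDM3A was named because of the placeholder, and SLC2A1 and the pseudogenes were chosen after their values or members were seen. Members and lists were chosen with earlier results of these data known.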

Additional observations from a re-analysis of the deposited data

Results flagged for a closer look

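Counts on the strand opposite to a member are not used in the comparisons above. Scaled by the total counts of each library, without TMM, they were higher with LINC01638 siRNA at HIF1AN and GPI. On that scale the libraries of the groups did not overlap. On the TMM scale those opposite HIF1AN overlapped, and those opposite GPI did not. Opposite HIF1AN they went from 25.3 ± 1.45 to 29.3 ± 1.40 CPM, and the gene NDUFB8 lies there on the other strand. Opposite GPI they went from 0.569 ± 0.0389 to 0.734 ± 0.0600 CPM. Neither difference was tested.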

How the results depend on the processing

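Under 15 other settings 17 of the 27 called members (13 lower, 4 higher) kept direction and call in every one. Scaling by library totals moved most: 8 members higher and 13 lower, 2 HIF and oxygen sensing genes, 5 enzymes and 1 regulatory kinase lower, 2 targets outside metabolism higher, and medians of -0.053 for HIF and oxygen sensing, -0.047 for enzymes and -0.32 for those targets. Over all genes 59.7% of calls were then higher (6349 higher, 4288 lower), against 47.0% with TMM. The column without strand called 1 enzyme higher. ANKRD37 made 1 target outside metabolism higher with DESeq2 size factors, protein-coding genes only, the stricter filter (1 CPM in 3 libraries) and the replicate block. Leaving out 1 library gave 1 to 3 enzymes higher and 0 to 1 of those targets higher, and medians of -0.21 to -0.12 for HIF and oxygen sensing, -0.21 to -0.10 for enzymes and -0.45 to -0.32 for the targets. The EGLN1 share fell by 4.41 instead of 1.91 percentage points with the longest transcript as length. Uncalled members changed sign: HK2 to 0.073 (library totals), 0.013 (protein-coding genes only) and 0.0086 (stricter filter), GPI to 0.051 (library totals) and ANKRD37 to -0.0084 (without strand). Leaving out 1 library gave HK2 -0.058 to 0.0083 (positive without LINC01638 siRNA replicate B) and BNIP3 -0.025 (without LINC01638 siRNA replicate C) to 0.15 (without B). In each case the cause was not tested. Same-letter libraries did not deviate together (r = -0.08, -0.02 and -0.02), so the letters were not taken as pairs. The replicate block called 6 members higher and 21 lower (NDRG1 and ANKRD37 gained, PGK1 and PKM lost), and 4676 and 5286 of all genes.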
